A study of Homo sapiens with 4 samples.

Results

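The 156 small nucleolar and Cajal body RNAs described here are the rows whose symbol starts with SNORA, SNORD or SCARNA and whose mean over the 4 libraries was at least 10 equalised counts. Where a symbol stood on several rows, the row with the highest mean was kept, which left out 23 rows. The table of the series holds 57659 genes, of which 893 carry such a symbol. The members were chosen by their mean over all 4 libraries, so their levels are given as a description. The rule uses no difference between the groups. The members were 76 SNORD, 63 SNORA and 17 SCARNA rows. Just inside the threshold stood SNORA40 at a mean of 10.15, SNORD51 at 10.8 and SNORD116-13 at 10.97, and just outside it stood a second SCARNA21 row at 9.59, SNORD114-3 at 9.56 and SNORD111B at 9.02.

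The libraries were made from 786-0, an established human renal cell carcinoma line, after transfection with a control siRNA (Control 1 and Control 2) or with an siRNA against SLFN5 (SLFN5 siRNA 1 and SLFN5 siRNA 2). No label gives the time after transfection or the siRNA sequence, and all 4 libraries come from this 1 line. RNA was selected for poly(A) before sequencing. Values are equalised counts, read counts that were adjusted to a common library size, and a log2 change is the SLFN5 siRNA mean minus the control mean of log2(value + 1), with its standard error (SE). The recovered totals ran from 13187517 counts in Control 2 to 31905328 in Control 1. SLFN5, an interferon-regulated growth regulator, had 420 and 353 equalised counts after control siRNA and 167 and 118 after SLFN5 siRNA (log2 change -1.45, SE 0.21, adjusted p = 0.000524, limma). All 7 renal epithelial carcinoma markers were found, PAX8 between 3392 and 4129, and the endothelial gene PECAM1 had no counts. The summed level of 3 leukocyte markers was between 2.05 and 8.37.

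Box C/D RNAs (SNORD) guide 2′-O-methylation of ribosomal RNA, and box H/ACA RNAs (SNORA) guide the conversion of uridine to pseudouridine. Cajal body RNAs (SCARNA) carry either or both kinds of box and guide the same changes in spliceosomal small nuclear RNAs. In vertebrates most of them are cut out of the introns of host genes, many of which encode ribosomal proteins or ribosome assembly factors, and a few, such as U3, have promoters of their own. A few of them, U3, U14 and U17 among them, serve cleavage of the ribosomal RNA precursor. The mature RNAs mostly have no poly(A) tail, and how much of each passed the selection was not measured.

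The sequences below are shown because the results turn on these RNAs: SNORD105B, SNORD83A, SNORD14E, SNORD63 and SNORA80 were lower in every fit that left out 1 library, SNORD60 and SNORD11 differed in how they stood to their hosts, and SNORA73B was the most abundant. They are GENCODE release 29 transcripts, 5′ to 3′ on the strand of the RNA, in DNA letters. Capitals mark the C box TGATGA and the D box CTGA in SNORD RNAs, and the H box ANANNA and the ACA near the end in SNORA RNAs.
SNORD105B: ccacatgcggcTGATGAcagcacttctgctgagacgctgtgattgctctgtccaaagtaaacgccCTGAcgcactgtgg
SNORD83A: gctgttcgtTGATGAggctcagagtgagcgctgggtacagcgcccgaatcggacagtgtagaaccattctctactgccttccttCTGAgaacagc
SNORD14E: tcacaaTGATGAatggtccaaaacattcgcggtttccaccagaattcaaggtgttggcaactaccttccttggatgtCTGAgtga
SNORD63: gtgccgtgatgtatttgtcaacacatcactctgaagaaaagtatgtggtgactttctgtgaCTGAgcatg
SNORD60: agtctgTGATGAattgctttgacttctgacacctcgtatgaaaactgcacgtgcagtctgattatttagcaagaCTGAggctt
SNORD11: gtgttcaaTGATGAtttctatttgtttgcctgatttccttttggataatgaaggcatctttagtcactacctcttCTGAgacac
SNORA80: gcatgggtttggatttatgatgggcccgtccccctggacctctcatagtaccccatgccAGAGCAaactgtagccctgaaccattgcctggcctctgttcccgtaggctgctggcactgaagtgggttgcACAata
SNORA73B: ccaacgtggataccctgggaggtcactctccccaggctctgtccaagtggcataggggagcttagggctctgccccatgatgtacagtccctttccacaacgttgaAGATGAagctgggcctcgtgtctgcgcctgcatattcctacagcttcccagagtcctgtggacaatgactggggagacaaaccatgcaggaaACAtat

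SNORD105B lies on chromosome 19 in an intron of PPAN, SNORD83A on chromosome 22 in RPL3, SNORD14E on chromosome 11 in HSPA8, SNORD60 on chromosome 16 in SNHG19 and SNORD11 on chromosome 2 in NOP58. SNORD63 lies on chromosome 5 and overlaps an annotated exon of HSPA9. Its row is a copy that the newer annotation names only by its RNA family, and the 6 letters TGATGA were not in its first 25 bases. SNORA80 lies on chromosome 21 in an intron of URB1 and SNORA73B on chromosome 1 in an intron of RCC1. The boxes were searched on the RNA strand only. TGATGA stood in the first 25 bases of 49 of 68 SNORD members with a sequence matched by identifier (72.1%), against 152 of the 244 other SNORD rows (62.3%) and 0 of 60 SNORA members. CTGA stood in the last 20 bases of 66 of those SNORD members (97.1%), of 82.8% of the other SNORD rows and of 8.33% of the SNORA members. ACA stood 3 bases before the end of 44 of the 60 SNORA members (73.3%), against 59.5% of the other SNORA rows and 2.94% of the SNORD members. ANANNA, which can overlap the other boxes, stood in the middle part (a stretch of equal length on either side) of 95% of the SNORA members and of 27.9% of the SNORD members.

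The members' summed level came to 250469 and 318833 for the controls, then to 274111 and 197484 for the knockdowns (SLFN5 siRNA 1 and 2). The groups overlapped, the ratio of their means was 0.828, and the exact two-sided permutation test gave p = 0.667, where 0.333 is the smallest that 6 splits allow. The members took between 1.16% and 1.67% of all counts in a library. A few RNAs held most of this sum: the 5 most abundant took 57.2% of it, and SNORA73B (U17), a box H/ACA RNA of ribosomal RNA cleavage, took 31.2% alone. SNORA73B stood at 80715 and 92814 in the controls and at 91025 and 59752 after SLFN5 siRNA, so that only SLFN5 siRNA 2 was low (log2 change -0.23, SE 0.18, adjusted p = 0.369, limma). Per kilobase of RNA the same RNA led with 397400, ahead of SNORD13 (U13), which guides acetylation of small-subunit ribosomal RNA, with 275600, SNORA48 with 89490, SNORD3A (U3) with 72350 and SNORD10 with 67580.

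After SLFN5 siRNA 18 of the 156 members were called in either direction, beside 29.6% of all genes tested, and all 18 were lower. All 156 passed the filter on low values. By limma with Benjamini-Hochberg adjustment over 15640 genes (threshold 0.05), these 18 (11.5%) fell, beside 16.3% of all genes tested. None rose, beside 13.3% of all genes. At an unadjusted p under 0.05 (limma) 33 of the 156 members were lower and 4 higher. Of all 15640 genes tested, 3441 were lower and 2904 higher at that threshold. Both SLFN5 siRNA libraries lay below both controls in 46 members (29.5%), beside 34.1% of all genes, and above both in 8 (5.13%), beside 30.5%. The log2 change was negative in 125 members and positive in 31, with a median of -0.32 against -0.03 over all genes tested.

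The calls rest on libraries to unequal degrees. Of the 18 calls, 15 were kept without Control 1, 12 without Control 2, 17 without SLFN5 siRNA 1 and 6 without SLFN5 siRNA 2. In these fits, in the same order, the median log2 changes of the members were -0.47, -0.16, -0.56 and -0.09. The medians over all genes were -0.02, -0.04, -0.03 and -0.02. Without a trend in the variance 3 were called lower, and of the 18 only SNORD63 was kept there (adjusted p = 0.0497, limma). The p-values measure the spread between libraries, which may be technical, since the labels do not state whether replicate libraries are from different cultures. A fit without 1 library leaves a single library in that group, so a gene's own spread there comes from the other group's pair alone. Calls kept, gained or lost in such fits are given as a description.

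**Figure D1:**
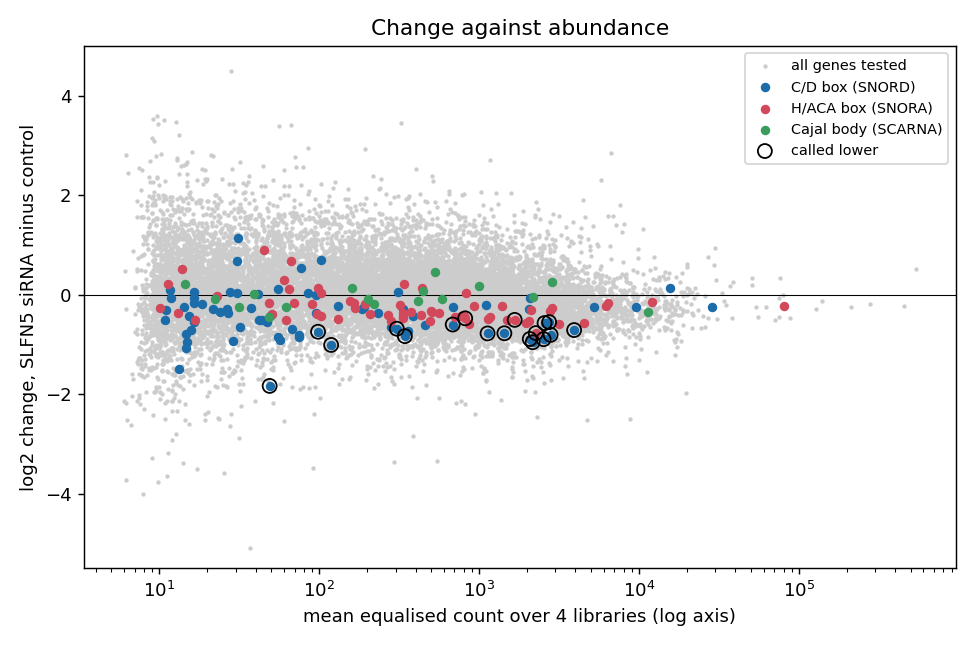
Log2 change (SLFN5 siRNA minus control) against the mean equalised count over 4 libraries (log axis) for 15640 genes tested (grey) and the 156 small RNAs by class (C/D, H/ACA, Cajal body), with the 18 called lower ringed. Most coloured points lie below 0 (125 of 156), and the ringed points lie below 0 at means from 48.9 to 3923.

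The box C/D RNAs held 15 of the 18 called members, 19.7% of the 76, which is near the 16.3% of all genes tested. SNORD105B, a guide for small-subunit ribosomal RNA in the gene of the ribosome assembly factor PPAN, stood at 2932 and 2703 in the controls and at 1889 and 1113 after SLFN5 siRNA. Both SLFN5 siRNA libraries were below both controls, with SLFN5 siRNA 2 the lowest. Its means were 0.533 of the control (log2 change -0.96, SE 0.19, adjusted p = 0.00355, limma), and without SLFN5 siRNA 2 the change was -0.58 (adjusted p = 0.0115).

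The SNORD63 row, a copy known only by its RNA family, overlaps an exon of HSPA9, the gene of a mitochondrial chaperone. It had the most negative change of the 156, from 80.0 and 72.8 to 27.6 and 15.4. Its reads and those of the HSPA9 exon cannot be told apart. The groups were well apart (log2 change -1.83, SE 0.38, adjusted p = 0.00409, limma; -1.44 and 0.0176 without SLFN5 siRNA 2). SNORD83A, from an intron of the ribosomal protein gene RPL3, fell from 2756 and 2558 to 1889 and 1084. SLFN5 siRNA 2 was the lower of the pair here as well, and the change was -0.89 (SE 0.20, adjusted p = 0.0063, limma; -0.49 and 0.0217 without that library). SNORD14E, a U14 copy in the chaperone gene HSPA8, fell from 1502 and 1330 to 1014 and 668 (log2 change -0.78, SE 0.18, adjusted p = 0.00671, limma; -0.48 and 0.0368 without SLFN5 siRNA 2). The other U14 genes in the table, SNORD14B, SNORD14C and SNORD14D, had no counts.

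Other called C/D RNAs were guides for large-subunit ribosomal RNA. SNORD60 stood at 3911 and 5888 in the controls and at 3257 and 2635 after SLFN5 siRNA (log2 change -0.71, SE 0.17, adjusted p = 0.00949, limma). SNORD99 stood at 2632 and 3858, then at 2403 and 1221, so that its values in SLFN5 siRNA 1 and Control 1 lay close together (log2 change -0.89, adjusted p = 0.0215). SNORD12 stood at 3319 and 3633, then at 2862 and 1374. Without SLFN5 siRNA 2 these 3 RNAs were not called (adjusted p = 0.0761, 0.167 and 0.143). SNORD91B had the opposite order within its group, with 506 in SLFN5 siRNA 1 and 575 in SLFN5 siRNA 2 below 715 and 936 in the controls, and its call held without SLFN5 siRNA 2 (adjusted p = 0.0245, limma) but not without Control 2 (0.207) or SLFN5 siRNA 1 (0.0773). Without Control 2 the SNORD60 call was lost as well (0.0758).

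SNORD11, whose host NOP58 encodes a core protein of the C/D particle itself, fell from 160 and 155 to 97.0 and 62.2 (log2 change -1.01, SE 0.27, adjusted p = 0.0148, limma). Without SLFN5 siRNA 2 the change was -0.69 (adjusted p = 0.077). The remaining called C/D RNAs were SNORD41, SNORD46, SNORD66, SNORD104, SNORD35B and SNORD9. Their log2 changes lay between -0.83 for SNORD66 and -0.55 for SNORD46, and none of the 6 was called without SLFN5 siRNA 2 (adjusted p between 0.0622 for SNORD41 and 0.171 for SNORD9). The SNORD104 call was also lost without Control 2 (0.0851), the SNORD35B call without Control 1 (0.069) and the SNORD9 call without either (0.234 and 0.135).

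**Figure D2:**
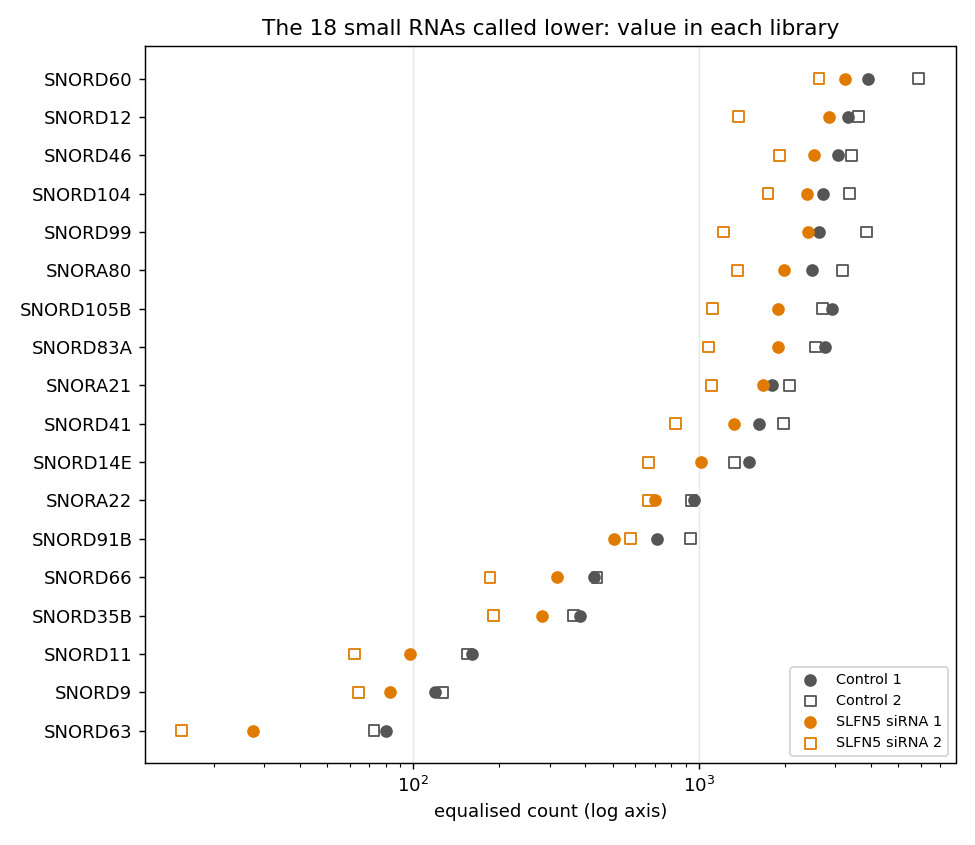
Equalised count (log axis) of each of the 18 small RNAs called lower, in Control 1 and 2 (grey) and SLFN5 siRNA 1 and 2 (orange). Every orange point lies to the left of both grey points of its row, and in SNORD63 the orange points stand at 27.6 and 15.4 against 80.0 and 72.8.

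The most abundant C/D RNAs were not called. SNORD3A, the U3 RNA that leads early cleavage of the ribosomal RNA precursor, stood at 10015 and 20702 in the controls and at 18737 and 13343 after SLFN5 siRNA, and the groups overlapped (log2 change 0.14, SE 0.26, adjusted p = 0.745, limma). Here too the value turned on the control kept, with -0.39 without Control 1 and 0.66 without Control 2. The sum over the U3 copies, whose reads the counting could split between near-identical genes, was 1.04 times the control level (exact two-sided permutation p = 1). SNORD13 stood at 27583 and 34548, then at 28629 and 23872 (log2 change -0.24, adjusted p = 0.221, limma). SNORD10 (9623 and 10909, then 11204 and 6649) and SNORD15B (5718 and 5665, then 5282 and 4369) were not called either.

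Positive changes were few and uncertain. SNORD3B-2, a U3 gene model of 791 bases, stood at 67.7 and 88.7, then at 117 and 136, both above the controls (log2 change 0.69, SE 0.26, adjusted p = 0.0663, limma; called by limma-voom on the recovered counts at 0.0449). The 11 members of the imprinted SNORD116 cluster on chromosome 15, processed from the transcript SNHG14, had a median log2 change of 0.04, with 4 negative and 7 positive. SNORD116-6 stood at 24.6 and 14.0, then at 50.05 and 35.2 (log2 change 1.14, SE 0.44, adjusted p = 0.0717, and 1.52 with 0.0415 without Control 1), whereas SNORD116-27 had a change of -0.55 (adjusted p = 0.467). These copies share much of their sequence, so the counting could split their reads, and their host SNHG14 had a change of 0.22 (adjusted p = 0.472).

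Of the 63 box H/ACA RNAs 3 were called (4.76%, beside 16.3% of all genes tested), all lower, with a median log2 change of -0.34. SNORA80, a guide for pseudouridine in ribosomal RNA from an intron of the ribosome assembly gene URB1, stood at 2487 and 3190 in the controls and at 1994 and 1362 after SLFN5 siRNA. The groups did not overlap (log2 change -0.77, SE 0.17, adjusted p = 0.00642, limma; -0.50 and 0.0483 without SLFN5 siRNA 2). SNORA22 fell from 961 and 941 to 703 and 665, the closest agreement within groups among the 3 (log2 change -0.48, adjusted p = 0.0167, limma; 0.0957, 0.0853 and 0.054 without Control 1, Control 2 and SLFN5 siRNA 2). SNORA21 stood at 1807 and 2076, then at 1674 and 1109 (log2 change -0.51, adjusted p = 0.045, limma; 0.117 and 0.308 without Control 2 and SLFN5 siRNA 2).

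The abundant H/ACA RNAs overlapped between groups. SNORA48 stood at 12754 and 12389 in the controls and at 13658 and 9525 after SLFN5 siRNA, SNORA24 at 6251 and 7306, then 7136 and 5007, and SNORA57 at 4702 and 8792, then 6568 and 4633. In each of the 3, SLFN5 siRNA 1 was within or above the range of the controls. SNORA84 was nearer the threshold, with 4145 and 3322 in the controls and 3308 and 1817 after SLFN5 siRNA (log2 change -0.60, adjusted p = 0.0594, limma), and it was called without Control 2 (0.000289) or SLFN5 siRNA 1 (0.00212). Without Control 2 the median change of the H/ACA RNAs was -0.04, and without Control 1 it was -0.61.

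None of the 17 Cajal body RNAs was called by limma, beside 29.6% of all genes tested, and 0 had an unadjusted p under 0.05. That count depended on the libraries kept: without Control 1 SCARNA2 was called lower (log2 change -0.67, adjusted p = 0.00091, limma), without Control 2 SCARNA5, SCARNA6 and SCARNA7 were called higher, and without SLFN5 siRNA 1 SCARNA7 was called higher (0.61, adjusted p = 0.0428). Their median log2 change was -0.08, with 10 negative and 7 positive, and their range was -0.46 to 0.45. SCARNA2, a guide for U2 RNA with a promoter of its own, stood at 10130 and 15761 in the controls and at 9950 and 9811 after SLFN5 siRNA (log2 change -0.35, SE 0.17, adjusted p = 0.135, limma). SCARNA7 stood at 2125 and 3017, then at 2355 and 3874, which put SLFN5 siRNA 2 at the top (log2 change 0.25, adjusted p = 0.405, and 0.51 with 0.026 without Control 2). SCARNA13 stood at 1815 and 2664, then at 2130 and 2109, inside the range of the controls.

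SCARNA5 and SCARNA6, both from introns of ATG16L1, were lowest in Control 1, at 242 and 626, against 717 and 1315 in Control 2. After SLFN5 siRNA they stood at 641 and 506, and at 1125 and 932 (log2 changes 0.45 and 0.17, adjusted p = 0.388 and 0.666, limma). Which control was kept set the direction: without Control 1 the changes were -0.33 and -0.36, and without Control 2 they were 1.23 and 0.71. Low SCARNA members were less precise: SCARNA9 and SCARNA10, at means of 14.5 and 22.4, had standard errors of 0.53 each. SCARNA1, SCARNA3, SCARNA4, SCARNA8, SCARNA11, SCARNA17, SCARNA18, SCARNA20, SCARNA21 and SCARNA23 had log2 changes between -0.46 for SCARNA23 and 0.14 for SCARNA3. The 7 members taken by symbol to have a promoter of their own (5 of them SNORD, with SCARNA2 and SCARNA17) had a median change of 0.03. The median was -0.35 for the 141 members inside a host gene and -0.22 for the 8 with no host assigned. Of the 141, 18 were called lower (12.8%, beside 16.3% of all genes tested). In each of the 2 small sets 0 were called lower. These differences were not tested.

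Libraries of the same group differed from each other in these RNAs. Control 2 was above Control 1 in 109 of the 156 members, beside 7219 of the 15640 genes tested. The median log2 difference was 0.29 in the members and -0.02 over all genes tested. SLFN5 siRNA 2 was below SLFN5 siRNA 1 in 130 members, beside 7775 of all genes tested, with a median difference of -0.49 against 0.00. In 67 members, beside 1300 of all genes tested, Control 2 was the highest and SLFN5 siRNA 2 the lowest of the 4 libraries. SLFN5 siRNA 1 alone differed from the mean of the controls by a median of -0.09, and SLFN5 siRNA 2 by -0.56. Whether RNA quality or library preparation had a part in this was not tested.

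**Figure D3:**
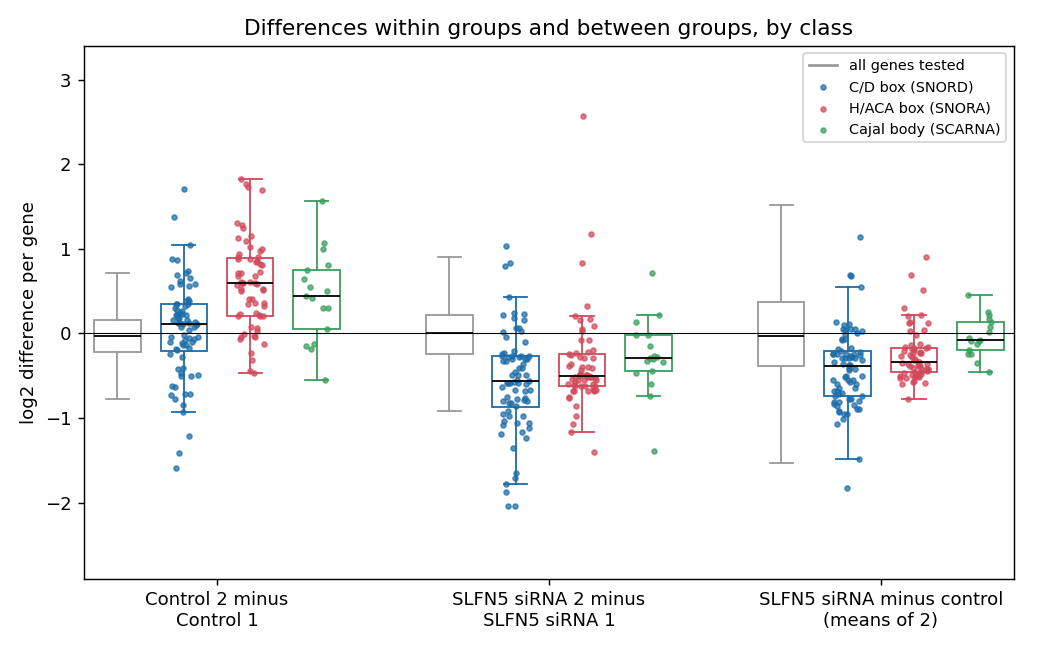
Log2 differences per gene between Control 2 and Control 1, between SLFN5 siRNA 2 and SLFN5 siRNA 1, and between the group means, for all genes tested (grey) and each class of small RNA; boxes span the quartiles with the median as a line, whiskers reach 1.5 times the quartile range, and points are members. The grey medians lie at -0.02, 0.00 and -0.03, while the medians of the H/ACA RNAs lie at 0.59, -0.51 and -0.34.

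The differences between and within groups varied with the length of the RNA, which also separates the classes. Members of up to 100 bases, 57 in number and all SNORD, had a median change of -0.50 between groups. Of these 57, 13 were called lower (22.8%, beside 16.3% of all genes tested). The 77 members over 100 and up to 150 bases had a median of -0.31 with 5 called (6.49%). The 20 longer members had a median of 0.04 with 0 called. Control 2 minus Control 1 had medians of -0.04, 0.41 and 0.74 in the same order, and SLFN5 siRNA 2 minus SLFN5 siRNA 1 had medians of -0.60, -0.50 and -0.33. Within the SNORD class, 2 of the 18 members over 100 bases were called lower (11.1%), with a median change of -0.25. Abundance also mattered for calls, since 16 of the 18 called members were among the 89 at a mean of 100 or more (18% of these, beside 22.6% of all genes tested at that level).

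Host genes were measured beside 138 members, in 105 hosts of which 103 were tested. Of these, 35 fell (34%, beside 16.3% of all genes tested and 22.6% of those at a mean of 100 or more). Another 7 rose (6.8%, beside 13.3% of all genes tested) and 61 were not called (limma). The median change over the hosts tested was -0.25. The hosts did not show the difference within groups: their medians were 0.06 between the controls and 0.07 between the SLFN5 siRNA libraries, against 0.24 and -0.50 for the small RNAs they hold. Leaving out Control 1, Control 2, SLFN5 siRNA 1 or SLFN5 siRNA 2 kept 27, 24, 28 or 30 of the 35 lower hosts. Across the 136 members with a tested host, which share libraries and in part hosts, the changes of small RNA and host had a Pearson correlation of 0.34, given as a description.

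Of the 17 called members with a host row, 5 had a host that fell, 1 a host that rose and 11 a host that was not called. Over all 136 members with a tested host, 46 had a host that fell and 7 a host that rose. HSPA9, the host of SNORD63, fell from 13365 and 15073 to 5592 and 5771 (log2 change -1.32, SE 0.11, adjusted p = 1.6e-05, limma). NOP58, the host of SNORD11, fell from 3603 and 4077 to 1845 and 2159 (log2 change -0.94, adjusted p = 0.000242), and TSR1, the host of SNORD91B, from 3207 and 3481 to 1830 and 1968. In these 3 pairs both RNAs were lower, and the 3 host calls were kept in every fit without 1 library. URB1, the host of SNORA80, also fell (log2 change -0.48, adjusted p = 0.0104, limma), but not without Control 2 (0.128).

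SNORD60 and its host moved in opposite directions. SNHG19, a noncoding host listed as RP11-304L19.5, stood at 515 and 521 in the controls and at 696 and 797 after SLFN5 siRNA (log2 change 0.52, SE 0.14, adjusted p = 0.0165, limma). That call was lost without Control 1, Control 2 or SLFN5 siRNA 2 (adjusted p = 0.0657, 0.0684 and 0.0789). Hosts that were not called included RPL3 for SNORD83A (-0.21), HSPA8 for SNORD14E (-0.24), TNPO2 for SNORD41 (0.01) and SNHG12 for SNORD99 (0.10). PPAN, the host of SNORD105B, had a change of -0.70 at an adjusted p of 0.0662.

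The converse also occurred, with hosts that fell around small RNAs that were not called. NCL, which encodes the nucleolar protein nucleolin, fell from 16957 and 18135 to 7381 and 8341 (log2 change -1.16, SE 0.11, adjusted p = 3.9e-05, limma). Its introns hold SNORA75, SNORD20 and SNORD82, with changes of -0.38, -0.40 and -0.37 (adjusted p = 0.423, 0.4 and 0.579, limma). Between Control 1 and Control 2 these small RNAs differed by 1.02, -0.42 and -0.71 (log2, Control 2 minus Control 1). A missed call therefore does not show that they were unchanged. SNORD70, the other member in NOP58, stood at 45.2 and 28.7, then at 40.8 and 12.3 (log2 change -0.65, adjusted p = 0.401). RCC1, which encloses SNORA73B and was taken as its host by that position, fell by 0.56 on the log2 scale (adjusted p = 0.00668, limma). Without Control 2 the change of RCC1 was -0.44.

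Genes for the proteins that bind, assemble, carry or trim these RNAs fell in 25 of 41 cases (61%, limma). The share was 16.3% for all genes tested and 22.6% for those at a mean of 100 or more. Of the 41, 2 rose (4.88%, beside 13.3% of all genes tested) and 14 were not called. The median log2 change of the 41 was -0.56. All 4 core proteins of the C/D particle fell. FBL, the methyltransferase fibrillarin, stood at 1095 and 1041 in the controls and at 688 and 558 after SLFN5 siRNA (log2 change -0.78, SE 0.14, adjusted p = 0.00188, limma). NOP58, NOP56 and NHP2L1 changed by -0.94, -0.66 and -0.74. These 4 calls were kept in every fit without 1 library.

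Of the H/ACA core proteins, 2 of 4 fell. DKC1, the pseudouridine synthase dyskerin, stood at 2851 and 2970, then at 1836 and 1969 (log2 change -0.61, SE 0.11, adjusted p = 0.00179, limma). GAR1 changed by -0.75 (adjusted p = 0.0252, and 0.269, 0.0661 and 0.0644 without Control 2, SLFN5 siRNA 1 and SLFN5 siRNA 2). NHP2 and NOP10 had changes of -0.22 and 0.24 and were not called.

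Among assembly factors 5 of 11 fell and 1 rose. The latter, PIH1D1 (log2 change 0.47, adjusted p = 0.0206, limma), was not called without Control 1, Control 2 or SLFN5 siRNA 1 (0.136, 0.055 and 0.0841). ZNHIT6, a factor of C/D assembly, stood at 1424 and 1525, then at 586 and 654 (log2 change -1.25, SE 0.13, adjusted p = 6.3e-05, limma), and the helicase gene RUVBL1 changed by -0.78. Of the 8 Cajal body and transport factors, 6 fell and 1 rose. The one that rose was NOLC1, a nucleolar and Cajal body chaperone of both particle types, from 1649 and 1686 to 3230 and 3486 (log2 change 1.01, SE 0.11, adjusted p = 9e-05, limma), and this call was kept without any 1 library. COIL, the Cajal body protein coilin, changed by -0.62 and WRAP53, which brings RNAs to Cajal bodies, by -0.60. The COIL call was lost without SLFN5 siRNA 1 (adjusted p = 0.0513), and the WRAP53 call without Control 1, Control 2 or SLFN5 siRNA 2 (0.0864, 0.087 and 0.0755). SMN1, the gene with the most negative change in the list (-1.66), has a near-identical copy, so its value is uncertain.

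Of the 9 genes of 3′ end trimming 5 fell, TOE1 most clearly (log2 change -0.76, adjusted p = 0.00204, limma), and of the 5 proteins of the U3 particle 3 fell. RRP9, which binds U3, stood at 1517 and 1706, then at 776 and 641 (log2 change -1.19, SE 0.14, adjusted p = 0.00012, limma). U3 itself was not called with all 4 libraries. Of the 25 genes that fell, 22, 17, 16 and 20 were kept without Control 1, Control 2, SLFN5 siRNA 1 and SLFN5 siRNA 2, and 13 in all of these fits. Without a trend in the variance 3 were called lower.

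**Figure D4:**
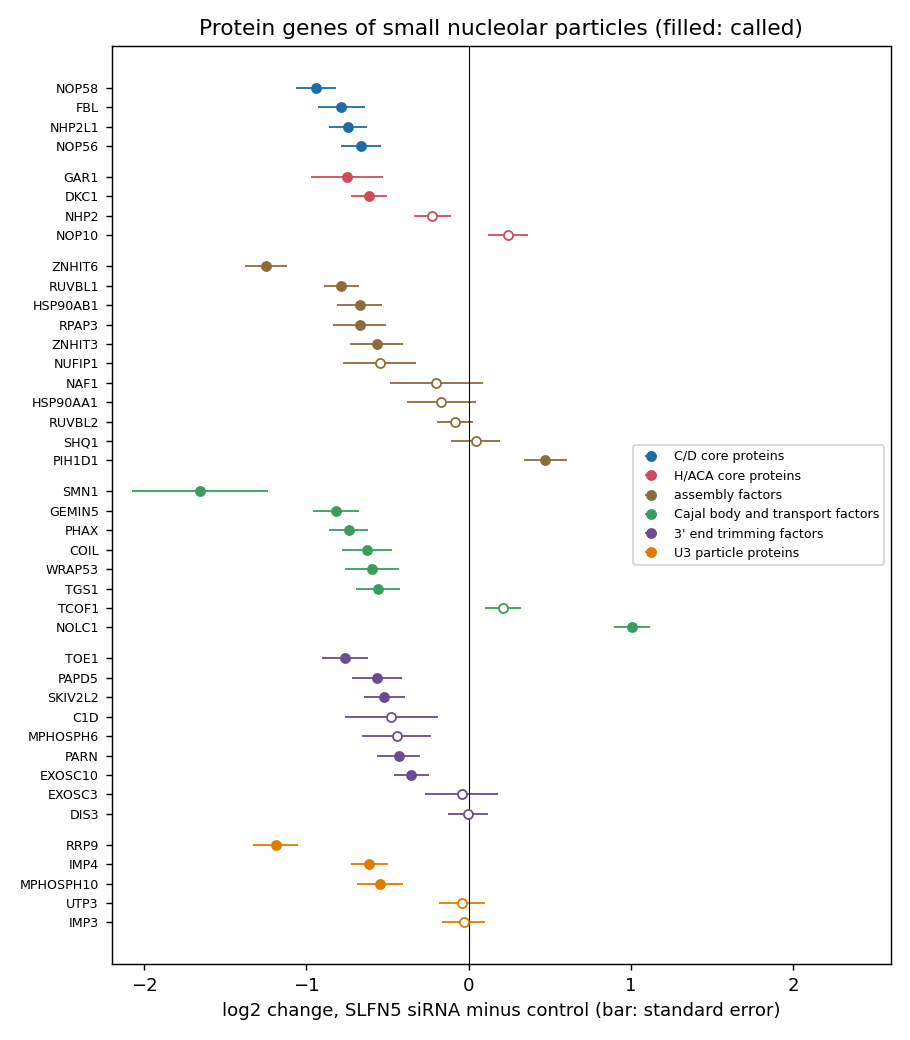
Log2 change (SLFN5 siRNA minus control, bar: standard error) of the 41 protein genes in 6 groups; filled points were called and open points were not. All 4 C/D core genes lie between -0.94 and -0.66, and NOLC1 at 1.01 and PIH1D1 at 0.47 are the filled points to the right of 0.

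Other short structured RNAs in the same libraries gave a mixed picture. Of 22 tested, 5 were lower (22.7%), beside 16.3% of all genes tested and 22.6% of those at a mean of 100 or more. Another 1 was higher (4.55%, beside 13.3% of all genes tested) and 16 were not called (limma). Without Control 1, 12 were called lower, among them RNU11, RNU12, RNU4-1, RNU4-2, RNU5A-1 and RNU5B-1, and without SLFN5 siRNA 2 there were 2. For RNU5A-1 and RNU5B-1, which are spliceosomal RNAs, the direction turned on the control kept. Their log2 changes were -0.58 and -0.82 without Control 1, and 0.66 and 0.49 without Control 2. RNU6ATAC, an RNA of the minor spliceosome, stood at 2902 and 2928, then at 2102 and 1235 (log2 change -0.86, SE 0.19, adjusted p = 0.00637, limma), and RNU6-1 changed by -1.09 (SE 0.23, adjusted p = 0.00449). Both calls were kept in every fit without 1 library, and in both RNAs SLFN5 siRNA 2 was the lowest, as in most called members. RNU4ATAC, RNU1-1 and VTRNA1-3 changed by -0.77, -0.49 and -0.59, and none of the 3 was called without SLFN5 siRNA 2 (adjusted p = 0.179, 0.367 and 0.128). Without Control 2 the RNU4ATAC and VTRNA1-3 calls were lost too (0.0808 and 0.395), and without SLFN5 siRNA 1 the VTRNA1-3 call (0.0572). RN7SK, which restrains transcription elongation, rose from 408974 and 482046 to 618901 and 642224 (log2 change 0.51, adjusted p = 0.038), but not without any 1 library (adjusted p between 0.0658 without Control 2 and 0.33 without Control 1). TERC, the telomerase RNA, which has an H/ACA end, changed by -0.01 and RMRP by -0.23, both not called, and RPPH1, at 1.34 to 7.13, was not tested.

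Not every known small RNA could be read from the table. Of the 893 rows with these symbols, 532 had no counts (59.6%). By the newer annotation, that share was 79.4% for the 204 rows that overlap an exon of a host gene and 41.5% for the 376 rows in introns. It was 67.3% for the 281 rows with no host. SNORA73A, in an intron of RCC1, and SNORD118 (U8) and SNORD22, in exons of TMEM107 and SNHG1, were among the rows with no counts. Whether the counting left out reads shared with a host exon was not tested. The kit does not mark strand, and SNORD13 and SNORA72 lie opposite an exon of another gene, so their reads and those of that gene cannot be told apart. For every member inside a host, reads of the mature RNA, of its precursor and of the host's own transcript cannot be told apart in a single count. In bulk RNA, fewer cells with a transcript and less of it in each cell cannot be told apart.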

How the data were processed

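RNA-seq was read as single ends on a HiSeq 2500 after a TruSeq RNA v2 preparation, per the labels' protocols. The submitters' processing notes name hg19 and edgeR, while the aligner, the counting and the annotation are not given in sources used here. The design text speaks of triplicates, and 4 libraries (2 per group) were analysed. Per gene, the authors deposited a normalised signal. It matches the pseudo-counts of the tool the authors named, read counts adjusted to a common library size (dispersion 0.0162): inverting it returned whole counts for 230636 of 230636 values (tolerance 1e-06), which served for depth and limma-voom. The totals were 31905328 (Control 1), 13187517 (Control 2), 17117659 (SLFN5 siRNA 1) and 14700669 (SLFN5 siRNA 2). Of the genes, 2682 carry no name.

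Genes at 10 or more in at least 2 libraries were tested with limma 3.58.1 (R 4.3.3) on log2(value + 1), with the group as the only term, an intensity trend in the variance, and Benjamini-Hochberg adjustment. This scale understates changes of low values. The steps were tested on simulated data. Alternatives changed the pseudocount, filter, scaling, trend, block, test and libraries. Hosts and lengths come from GENCODE 29 (143 members matched by identifier and 8 by symbol), with 3 lengths from RefSeq, and 2 members were unmatched. Where several longer genes on the same strand enclosed a small RNA, the one with the highest mean was taken as host. A host named here therefore need not be the transcript that the small RNA is cut from. The rule for named genes took the 15 highest means, every called member, all SCARNA members, cleavage or self-promoted RNAs and their hosts; further members and hosts were named after their values were seen. Members and lists were chosen with earlier results of these data known. The values of 1 host gene are not reported here.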

Additional observations from a re-analysis of the deposited data

How the results depend on the processing

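With 2 libraries per group and depths down to 13187517 counts, changes of low members could not be placed: the median SE was 0.44 for the 67 members at a mean under 100, and a missed threshold does not show that an RNA was unchanged. The 18 calls kept their direction under the alternatives run, while the median of the Cajal body RNAs changed sign, and RNU5A-1 and RNU5B-1, not called with all libraries, were called lower without Control 1 and higher without Control 2. The members called lower, 18, were 29 with no filter (17 of the 18 kept) and 3 without the variance trend (1 kept). With limma-voom on the recovered counts 1 member was called higher in place of 0, and 16 of the 18 were kept, as under both rescalings, with SNORA21 and SNORD9 lost each time. Trimmed-mean scaling moved the median of all genes by 0.04 (log2). Leaving out 1 library gave 7 to 42 members lower and 0 to 5 higher, 6 to 26 C/D RNAs lower, 1 to 25 H/ACA RNAs lower and 0 to 1 Cajal body RNAs lower. It gave 16 to 23 protein genes lower and 1 to 2 higher, 4 to 5 hosts higher and 24 to 32 lower, and 1588 to 2300 genes lower and 1353 to 1791 higher in all. The medians ran from -0.78 to -0.11 for C/D RNAs from -0.61 to -0.0434 for H/ACA RNAs, from -0.33 to 0.07 for Cajal body RNAs and from -0.56 to -0.09 for all members. The summed ratio ran from 0.694 to 0.963. With no filter 12 H/ACA RNAs were lower. Without the variance trend 3 C/D and 0 H/ACA RNAs were lower, 3 protein genes lower and 1 higher, 6 hosts lower and 0 higher, and 510 genes lower and 672 higher. The causes were not tested.

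The replicate block takes the libraries that share a number as pairs. With it 42 members were lower and 4 higher (18 of the 18 kept). Over all genes 3695 were lower and 3008 higher with the block, beside 2544 and 2086 without it. The members lower with the block were 23 C/D, 18 H/ACA and 1 Cajal body RNAs. In the same fit 4 protein genes were higher. The titles give the libraries of a number a common prefix in both groups, but do not say what it marks, and the differences between number 2 and number 1 correlated across genes at 0.19 (members 0.27) between the groups.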
